A study of Mus musculus with 4 samples.

Results

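The genes described here are the heat shock proteins and DnaJ co-chaperones of sorted mouse epidermal cells. They were taken as every gene whose symbol in the platform annotation begins with Hspa, Hspb, Hspd, Hspe, Hsph, Hsp90 or Dnaj. That gave 72 of the 18193 genes on the array, with 1 probe set per gene, the one whose log2(signal + 1) averaged highest over the 4 arrays.

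The samples were basal cells of the epidermis, taken from mice at the embryonic stage E16.5 and sorted as live single cells by flow cytometry on α6 integrin, a surface protein of basal keratinocytes, and on YFP. Of the 4 arrays, 2 were labelled cKO, with the genotype SRF fl/fl for the transcription factor gene Srf together with ROSA26 YFP fl/fl and K14-Cre. The other 2 were labelled het, with SRF fl/+ together with the same ROSA26 YFP fl/fl and K14-Cre. The design text calls the latter genotype WT, and the strain label of the het arrays reads only Rosa26. Both groups carry Cre under the K14 promoter, which is active in basal keratinocytes, and both carry the YFP reporter, so no array comes from mice without Cre or with 2 unmodified Srf alleles. Each title ends in a number that occurs once in each genotype. Here the first pair means the arrays het_1210 and Ko_1210, and the second pair means het_1261 and KO_1261. No label says what a number marks or whether embryos were pooled, so the spread between arrays may be partly technical. In bulk RNA, fewer cells of a type and less RNA per cell cannot be told apart.

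Chaperones hold unfolded proteins and help them to fold, to be remodelled or to be handed on for degradation. HSP70 proteins bind short stretches of unfolded chain and release them in a cycle driven by ATP. DnaJ proteins bring clients to HSP70 and stimulate its ATPase, and HSP110 proteins exchange its nucleotide. HSP90 acts late, on kinases and receptors among others, and HSP60 with its lid HSP10 forms a folding chamber in mitochondria. Small heat shock proteins hold clients without ATP. Heat and other protein damage induce many cytosolic members through the factor HSF1, while unfolded protein in the endoplasmic reticulum (ER) induces a separate group through ATF6, XBP1 and ATF4. Both systems are active in basal keratinocytes, which divide and make large amounts of keratin.

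The promoter sequences show which members carry the elements of these pathways. They are RefSeq sequences of build GRCm38.p6, from 250 bases before to 50 bases after each annotated start, and 59 of the 72 genes matched by gene identifier. Both strands were searched. The heat shock triplet, 3 alternating units of GAA and TTC, each 2 bases apart, was found for 4 of the 59 genes (Dnajb6, Hspd1, Hspe1 and Hsph1), which is 6.78%, against 0.662% of all 27025 genes in the table. A pair of such units, which every triplet also holds, was found for 16 of 59, or 27.1%, against 17% of all genes. The ER stress element, CCAAT followed after any 9 bases by CCACG, was found for 3 of 59 (Hspa5, Hsp90b1 and Dnajc3), or 5.08%, against 0.137% of all genes. CCAAT alone, which the ER stress element includes, stood in 40.7% of members and 41.1% of all genes. The CArG box, the site that SRF binds (CC, 6 bases of A or T, GG), was found in the window of 1 of 59 members, Dnajc16, or 1.69%, against 1.81% of all genes. Such matches describe letters in a window and not bound sites.

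The stretches below are shown because they hold the heat shock units of genes whose values are compared further on, printed 5′ to 3′ on the strand of the gene with the matched units in capitals. Hspe1 (mitochondrial HSP10) and Hspd1 (HSP60) lie head to head, with the start of Hspe1 216 bases from 1 annotated start of Hspd1. The stretch of Hspe1 at chr1:55088038-55088088 (+) thus holds the same overlapping triplets as the promoter at that Hspd1 start, read from the other side. The window of another annotated Hspd1 start, chr1:55088194-55088493 (-), holds no triplet. The Dnajb6 stretch is at chr5:29735839-29735889 (+). The last 120 bases before the starts of Hspa1a, at chr17:34972157-34972276 (-), and Hspa1b, at chr17:34959239-34959358 (-), hold a pair of units and no triplet in this window.
Hspe1: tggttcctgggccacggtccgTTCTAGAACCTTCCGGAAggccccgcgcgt
Dnajb6: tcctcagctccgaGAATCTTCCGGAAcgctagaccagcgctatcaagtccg
Hspa1a: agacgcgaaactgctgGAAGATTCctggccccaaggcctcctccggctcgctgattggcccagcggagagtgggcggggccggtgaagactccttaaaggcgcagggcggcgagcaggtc
Hspa1b: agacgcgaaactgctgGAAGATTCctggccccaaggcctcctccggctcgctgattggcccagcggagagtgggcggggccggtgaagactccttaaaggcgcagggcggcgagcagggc

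The promoters of Hspa1a and Hspa1b, neighbouring copies of the inducible cytosolic HSP70 gene, were alike at 296 of 300 positions. The next stretches hold the ER stress elements in capitals, which on the opposite strand read CGTGG, 9 bases and ATTGG. Hspa5 at chr2:34771980-34772089 (+) encodes BiP, the HSP70 of the ER. Dnajc3 at chr14:118937822-118937931 (+) encodes P58IPK, a DnaJ co-chaperone of BiP. Hsp90b1 at chr10:86705504-86705664 (-) encodes GRP94, the HSP90 of the ER, and holds 2 such elements.
Hspa5: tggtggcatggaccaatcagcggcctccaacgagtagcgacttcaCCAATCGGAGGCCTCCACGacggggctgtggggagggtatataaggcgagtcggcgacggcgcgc
Dnajc3: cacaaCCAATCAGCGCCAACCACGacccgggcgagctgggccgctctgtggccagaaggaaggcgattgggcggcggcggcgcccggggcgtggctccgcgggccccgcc
Hsp90b1: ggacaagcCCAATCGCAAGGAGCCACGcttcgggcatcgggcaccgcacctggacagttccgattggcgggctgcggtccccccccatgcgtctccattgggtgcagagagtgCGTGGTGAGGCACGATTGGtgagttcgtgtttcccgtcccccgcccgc

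The values are MAS5 array signals on a linear scale, scaled to a common trimmed mean of 500 on all 4 arrays, so a difference is relative to that mean. A probe set was tested if its mean log2(signal + 1) lay above the median of all probe sets, a signal of 65.9. By that rule 60 of the 72 genes were tested, among 11055 genes and 22518 probe sets in all. The 12 that were not tested were Hspa1l, Hspa12a, Hspa12b, Hspb3, Hspb7, Hspb9, Dnajb7, Dnajb8, Dnajb13, Dnajc5b, Dnajc5g and Dnajc22. Hsp90ab1 and Dnajc19 are not analysed here. Hspb11 (now Ift25, a ciliary transport subunit), Hspbp1 (a nucleotide exchange factor of HSP70) and Hspbap1 entered by their prefix and are not heat shock proteins.

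Srf itself, the check of the labels, gave signals of 834 and 1108 on the het arrays and of 47.9 and 80.4 on the cKO arrays. The floxed part of the gene is not stated in the labels. The basal keratinocyte markers Krt5, Krt14, Trp63, Itga6, Itgb4 and Col17a1 were above the filter on all 4 arrays (6 of 6), as were 8 of 9 suprabasal and 7 of 8 dermal fibroblast markers. The summed signal of the fibroblast markers was 46478 and 39253 on the het arrays and 34678 and 36063 on the cKO arrays, and that of the suprabasal markers was 146711 and 95144 against 92631 and 74803. With the pair as a block, the suprabasal Krt1, Krt10 and Sbsn, the fibroblast Col3a1, Twist2 and Vim and the immune Laptm5 were called lower in cKO (limma). Without the block no marker of these lists was called. Over all genes 0.868% were called with the block and 0% without it. Between the pairs, 3 of 6 basal markers were called, Itga6 higher in the second pair and Krt5 (−0.59) and Krt14 (−0.65) lower. Of 8 tested suprabasal markers 6 were called, Lor (1.96) and Dsc1 higher and Krt1, Krt10, Sbsn and Krtdap lower. Among all genes 31.8% were called between the pairs, 12.8% higher and 19.1% lower. For endothelial, immune and melanocyte lists, 2 of 5, 1 of 5 and 3 of 6 markers were above the filter on all arrays, for skeletal muscle 1 of 6, and for erythroid and nerve lists none. The pairs also differed outside the chaperones. Poly-A spike-in controls were 2.25-fold (het) and 2.19-fold (cKO) brighter in the first pair than in the second. Hybridization spike-in controls were also brighter in the first pair, 1.90-fold (het) and 1.73-fold (cKO). Xist, the RNA of the inactive X chromosome, gave 62.6 and 115 in the first pair and 14338 and 22802 in the second. The Y-linked Eif2s3y gave 1485 (het) and 1386 (cKO) in the first pair and 834 (het) and 3.01 (cKO) in the second. Within the second pair it thus also differed between the genotypes, and the 2 differences cannot be told apart there.

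The first comparison asked whether chaperone genes differ in basal cells that lack Srf. No member passed the test. Without a block Srf itself, with a difference of −3.93, was not called either (adjusted p = 0.999955, limma). With the pair as a block it was called (adjusted p = 1.18e-12, limma). The fit without a block thus missed a large difference, and its lack of calls says little about the members. Across the 60 tested genes the difference between cKO and het ran from −0.54 (Dnajb12) to 0.44 (Dnajc13) on the log2 scale. The median member differed by 0.05, against −0.02 for all tested genes, 39 of 60 members and 5109 of 11055 genes lay above 0, and the median size of a difference was 0.126 among members and 0.160 among all genes. Within the pairs the members' median was 0.07 (first) and 0.05 (second), and 31 of 60 members had the same sign in both pairs, against 56% of all genes.

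With limma and p-values adjusted by Benjamini-Hochberg over all tested probe sets, 0 of 60 members were called in either direction, and the share called among all genes was 0%. At an unadjusted p under 0.05 the counts were 0 of 60 members and 66 of 11055 genes (0.597%). With the pair as a block, 0 of 60 members were again called, where the share called over all genes was 0.868%. Under that fit 5 members had an unadjusted p under 0.05 (Dnajc13 0.44, Dnajc3 0.38, Hspd1 0.31, Dnajc17 −0.33 and Dnajb12 −0.54), against 8.86% of all genes. The 95% interval of the difference lay within a 2-fold change in either direction for 56 of 60 members with the block (84.5% of all genes), and for 30 of 60 without it (46.1%).

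**Figure D1:**
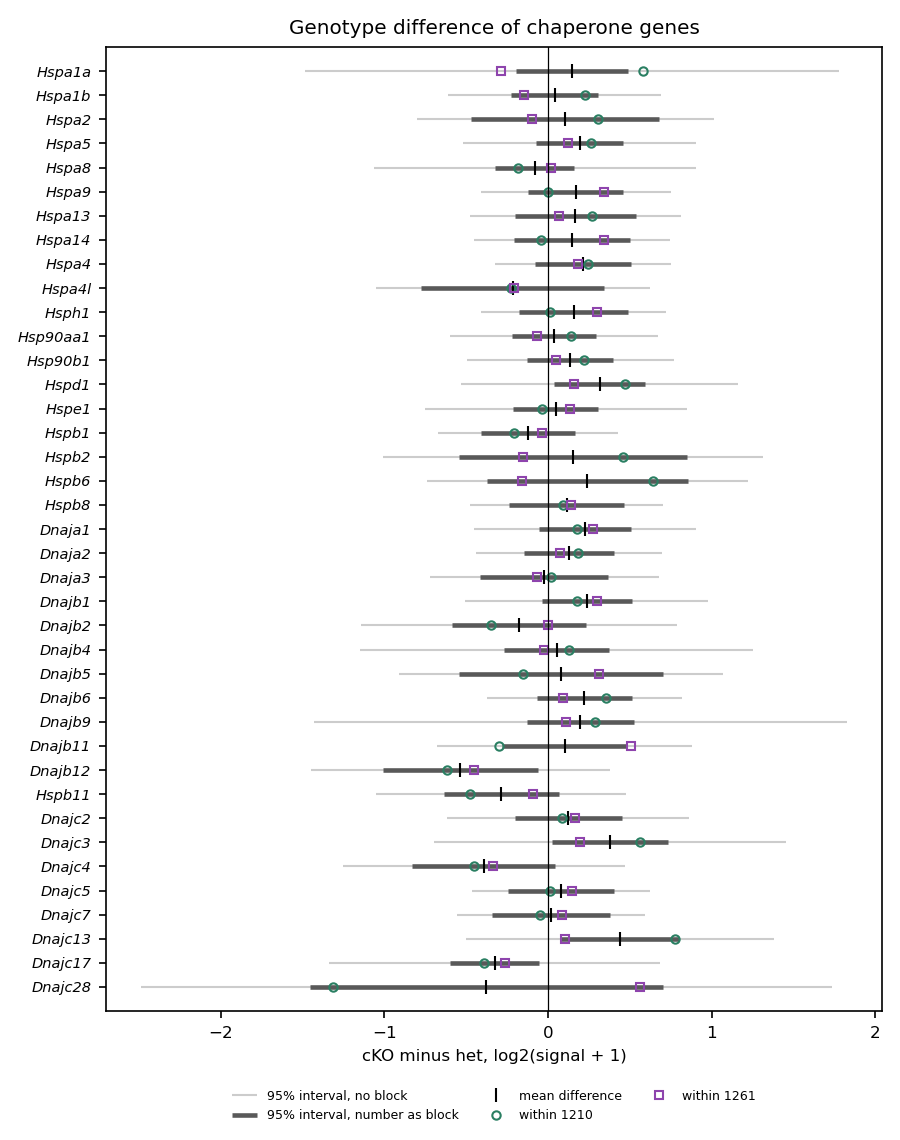
Difference between cKO and het in log2(signal + 1) for a selection of the tested heat shock and DnaJ genes, with the mean difference (tick), its 95% interval without a block (pale line) and with the title number as a block (dark line), and the difference within each pair of arrays that share a title number (open symbols). All means lie between −0.54 (Dnajb12) and 0.44 (Dnajc13), and every interval without the block crosses 0.

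Among the cytosolic HSP70 genes, Hspa8, the constitutive HSC70, gave 48102 (het) and 42409 (cKO) in the first pair and 29417 and 29767 in the second. Its het mean was 38760 ± 13212 and its cKO mean 36088 ± 8939 (SD, n = 2 each), a log2 difference of −0.08 with a 95% interval from −0.32 to 0.16 in the blocked fit. The genotypes overlapped, and the pair separated the arrays where the genotype did not. The inducible Hspa1a gave 1477 and 2207 in the first pair (het, then cKO) and 4808 and 3937 in the second. Its genotype difference was thus 0.58 in the first pair and −0.29 in the second, with a mean of 0.15. Hspa1b gave 13976 and 16363, then 17179 and 15533, with differences of 0.23 and −0.15. For Hspa2 and Hspa14, a testis-enriched and a ribosome-associated HSP70, the mean differences were 0.10 and 0.15. The testis form Hspa1l and the endothelial Hspa12b were not tested, with signals from 2.87 to 16.4 and from 4.20 to 66.4.

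In the HSP110 family the arrays of all 3 members separated by genotype at their brightest probe sets. Hspa4 (APG-2) had 4120 and 4134 in het against 4869 and 4695 in cKO. Hsph1 (HSP105) had 1833 and 1672 in het against 1847 and 2060 in cKO, and Hspa4l (APG-1) had 235 and 218 against 201 and 188. The groups did not overlap for any of them, but the lowest cKO value of Hsph1 lay just above its highest het value. Hspa4 and Hsph1 were higher in cKO and Hspa4l lower, and their mean differences of 0.21, 0.16 and −0.22 did not pass. The 3 tested probe sets of Hspa4 differed in sign, from −0.30 to 0.23, while those of Hsph1 and of Hspa4l each kept one sign. Over all members, the arrays of cKO and het did not overlap for 9 of 60 genes, 5 with cKO higher (Hspa4, Hsph1, Dnaja2, Dnajb6 and Dnajc5) and 4 with cKO lower (Hspa4l, Hspb1, Dnajb12 and Dnajc21), against 19% of all genes (8.18% higher and 10.9% lower). The members' share was therefore no larger than that of the array as a whole.

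At its brightest probe set Hsp90aa1, the inducible cytosolic HSP90, averaged 20126 ± 698 over the het arrays and 20656 ± 1403 over the cKO arrays (SD, n = 2 each), a difference of 0.04 with an interval from −0.22 to 0.29. Hspd1 had 8003 ± 2630 and 9765 ± 1785, and its difference of 0.31 (0.47 in the first pair and 0.16 in the second) was the largest outside the DnaJ genes. Its partner Hspe1 differed by 0.05 (14738 ± 3866 and 15087 ± 2725). Hspa9, the mitochondrial HSP70 mortalin, differed by 0.17.

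Small heat shock proteins are linked to actin and intermediate filaments, and 4 of their 7 genes were tested. Hspb1 (HSP27), which is abundant in differentiating epidermis, had 5547 and 5292 in het and 4798 and 5160 in cKO. The cKO values were both below the het values. The differences were −0.21 in the first pair and −0.04 in the second, and the mean of −0.12 did not pass. Hspb8 differed by 0.11. The muscle-associated genes Hspb2 and Hspb6 had signals of 109 to 193 and of 145 to 226, with differences of 0.46 and 0.64 in the first pair and of −0.15 and −0.16 in the second. Hspb7, another muscle-associated member, lay between 10.7 and 49.6 and was not tested.

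The 8 members listed as acting in the ER lumen, a set drawn up with values known, all lay above 0 in the mean difference between cKO and het. Their median was 0.18, against −0.02 for all tested genes. Yet 0 of 8 were called, where the share called over all genes was 0% without the block and 0.868% with it. The 8 members were Hspa5 (0.19), Hspa13 (0.17), Hsp90b1 (0.14), Dnajb9 (0.20), Dnajb11 (0.10), Dnajc1 (0.21), Dnajc3 (0.38) and Dnajc10 (0.12). Within each pair 7 of 8 were above 0. Hspa5 gave 9839 (het) and 11811 (cKO) in the first pair and 13147 and 14317 in the second, so the cKO array was the higher in both pairs while the genotypes overlapped. The arrays of the genotypes overlapped for all 8 of these genes. At a second, dimmer probe set Hsp90b1 had 1871 and 1659 in het against 2323 and 3524 in cKO, a difference of 0.70 (adjusted p = 0.0343, limma with the block). It was the only one of 128 tested probe sets of the members that passed with the block, against 0.862% of all tested probe sets, and it did not pass without the block.

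The class A DnaJ proteins, partners of HSP70, differed by 0.23 (Dnaja1), 0.13 (Dnaja2) and −0.02 (Dnaja3, mitochondrial). Class B gave 0.24 for Dnajb1 (HSP40), 0.22 for Dnajb6, a suppressor of aggregation, −0.18 for Dnajb2, 0.05 for Dnajb4 and 0.08 for Dnajb5. Dnajb12, a membrane-bound ER co-chaperone whose J domain faces the cytosol, had the lowest mean difference. Its signal went from 473 (het) to 308 (cKO) in the first pair and from 323 to 235 in the second, with differences of −0.62 and −0.45. In class C the differences were 0.12 for Dnajc2, 0.08 for Dnajc5, 0.02 for Dnajc7, −0.39 for Dnajc4 and −0.38 for Dnajc28. Hspb11, included for its prefix, differed by −0.29. Dnajc13, an endosomal protein and the member with the highest difference, had 862 and 1612 in het against 1474 and 1733 in cKO, so most of its difference came from the first pair (0.77 against 0.10). These values are those of the brightest probe sets. The other tested probe set gave −0.52 for Dnajc13 and −0.01 for Dnajb12, and the difference between genotypes had one sign at all tested probe sets in 22 of the 39 genes with more than 1.

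The other comparison set the second pair against the first, with genotype in the model. The comparison divided the chaperone genes evenly: 18 of 60 members passed, 9 higher and 9 lower in the second pair. The share called among all genes was 31.8%, with 12.8% higher and 19.1% lower, so the members' 30% was near that of the array. The inducible HSP70 gene Hspa1a and the ER co-chaperone Dnajb9 had the largest rises, while the constitutive Hspa8 and several DnaJ class C genes fell. The pairs did not overlap for 40 of 60 members, 20 in each direction, against 66.9% of all genes (25.4% higher and 41.5% lower). The sign was the same in het and cKO for 44 of 60 members and 77.5% of all genes, and the difference between pairs was larger than that between genotypes for 47 of 60, against 74% of all genes.

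**Figure D2:**
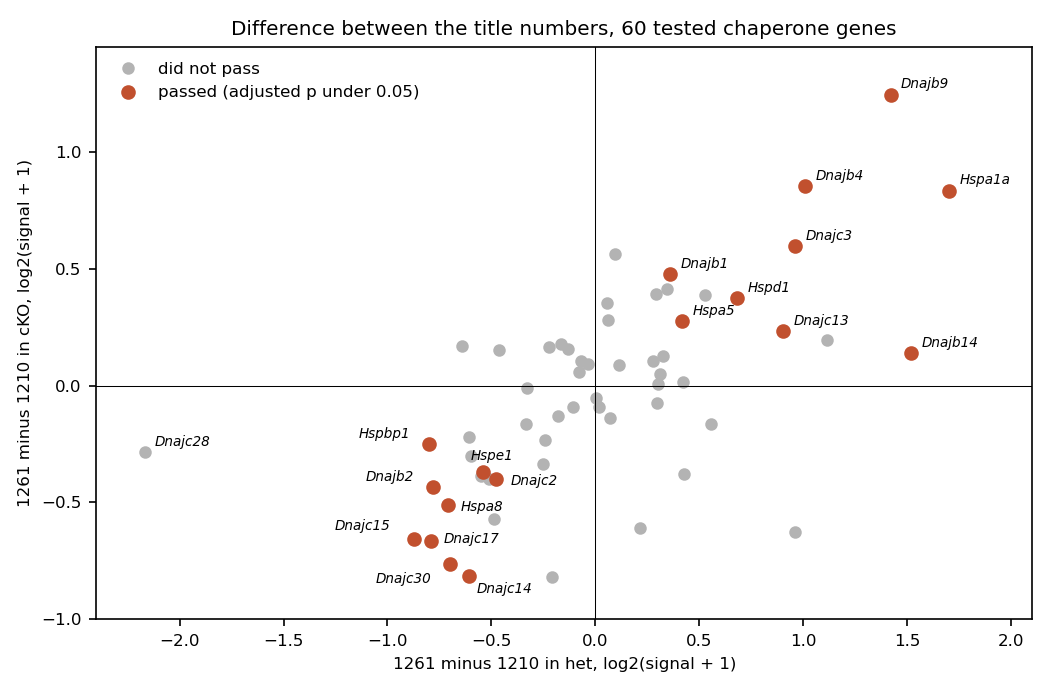
Second minus first pair (axis labels give the title numbers) in log2(signal + 1) for each of the 60 tested heat shock and DnaJ genes, in het (horizontal axis) and in cKO (vertical axis), with 1 array per pair and genotype. The 18 genes that passed (limma, adjusted p under 0.05) are in colour, and Dnajc28 is named although it did not pass. All 18 have the same sign in both genotypes.

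Among the members listed as heat-inducible, a list drawn up with values known that also holds the mainly constitutive Hspa8, Hspa1a was 2.41-fold higher in the second pair (signals given above), with a log2 difference of 1.70 in het and 0.83 in cKO (mean 1.27, adjusted p = 2.48e-07, limma). Dnajb4, a cytosolic partner of HSP70, had 1575 and 1724 in the first pair and 3174 and 3118 in the second. Its rise of 0.93 was of much the same size in het (1.01) and cKO (0.85), and the pairs lay far apart compared with the genotypes. Dnajb1 rose by 0.42 and Hspd1 by 0.53. In the opposite direction, Hspa8 fell by 0.61 (adjusted p = 0.000125, limma) and Hspe1 fell by 0.46. Of the 12 members listed as heat-inducible, 4 were higher, 2 were lower and 6 were not called, and their median was 0.06, against −0.13 for all genes (12.8% higher and 19.1% lower). The 6 were Hspa1b (0.11), Hsp90aa1 (−0.03), Hsph1 (0.01), Hspa4l (−0.10), Hspb1 (0.02) and Dnaja1 (0.34, adjusted p = 0.0515, limma).

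Hspd1 and Hspe1 moved in opposite directions between the pairs, and their starts share the stretch printed above. Hspd1 gave 6144 and 8503 in the first pair and 9863 and 11028 in the second, while Hspe1 gave 17472 and 17014 in the first and 12004 and 13160 in the second. Each gene separated the pairs without overlap, Hspd1 upwards and Hspe1 downwards, as 66.9% of all genes did in either direction. The call of Hspd1 held under 5 of 7 alternatives and that of Hspe1 under 4 of 7. A second probe set of Hspe1 also fell, by 0.40. Of the 4 genes with a heat shock triplet, Hspd1 was thus called higher, Hspe1 lower, and Dnajb6 (0.18) and Hsph1 (0.01) were not called.

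**Figure D3:**
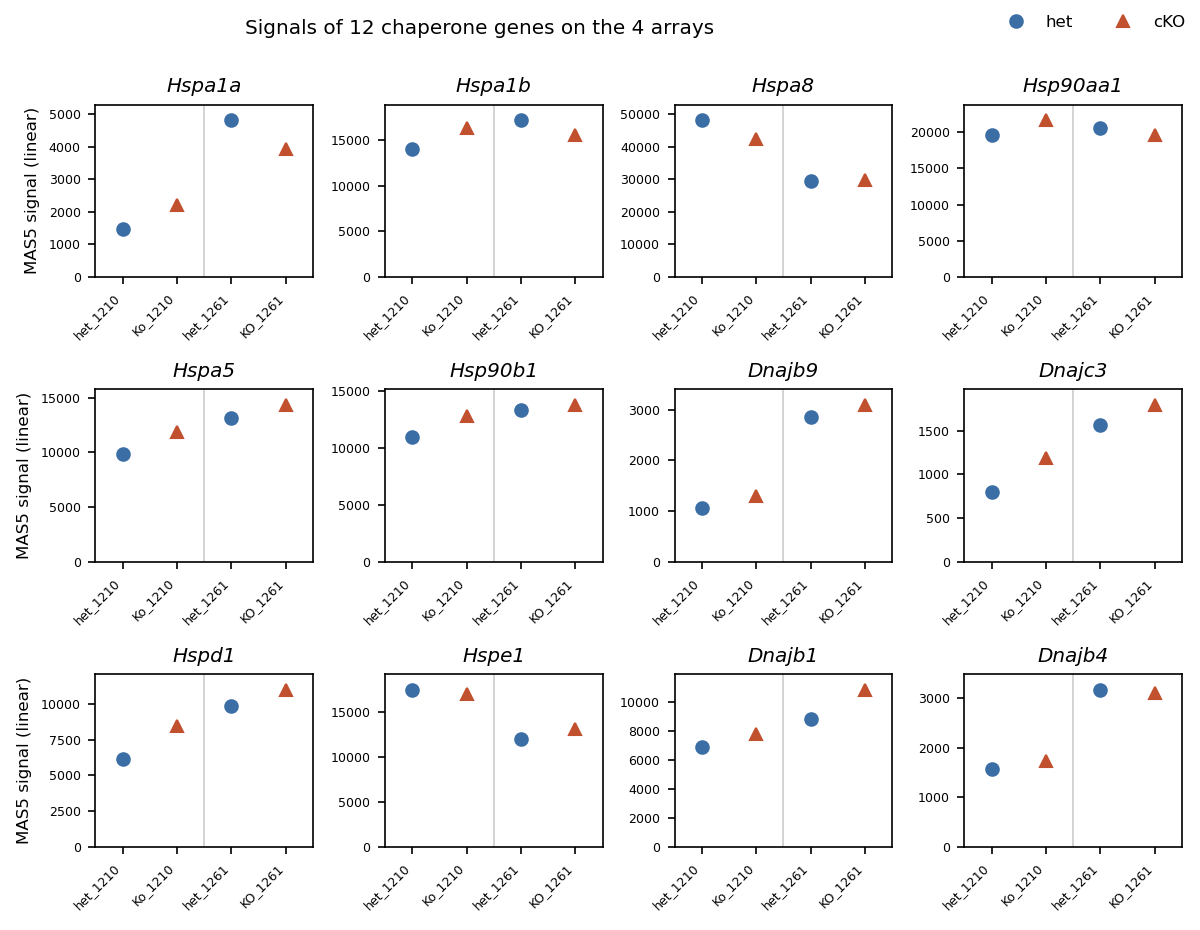
MAS5 signal (linear axis starting at 0, a scale of its own in each panel) of 12 chaperone genes on the 4 arrays, the first pair left and the second right of the pale line, circles for het and triangles for cKO. Hspa1a, Dnajb9, Dnajb4, Dnajc3, Hspd1, Dnajb1 and Hspa5 stand higher in both arrays of the second pair, and Hspa8 and Hspe1 lower, while Hspa1b and Hsp90aa1 overlap.

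In the ER set, drawn up with values known, 3 of 8 rose and none fell, with a median of 0.29, against 12.8% of all genes higher and 19.1% lower. Dnajb9 (ERdj4), which binds BiP and the stress sensor IRE1, had 1069 (het) and 1303 (cKO) in the first pair against 2864 and 3092 in the second. It was the largest difference among the 60 tested members, 1.33 (SE 0.16, adjusted p = 4e-08, limma), and both arrays of the second pair exceeded both of the first more than 2-fold. Under the 7 alternatives its adjusted p rose to at most 0.0171 (limma). Dnajc3 rose by 0.78, from 803 and 1183 to 1562 and 1791, and Hspa5 by 0.35. The call of Hspa5 was lost under 4 of 7 alternatives, and its 3 tested probe sets ran from −0.23 to 0.49. Of the 3 genes with an ER stress element, Hspa5 and Dnajc3 rose and Hsp90b1 differed by 0.19 without passing. Dnajc1, an ER membrane co-chaperone, differed by 0.46 (adjusted p = 0.0502, limma), just outside the threshold, and Hspa13, Dnajb11 and Dnajc10 by 0.23, −0.24 and 0.20.

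Of the 7 members listed as mitochondrial, a set drawn up with values known, Hspd1 rose, and Hspe1, Dnajc15 and Dnajc30 fell. Among all genes 12.8% were higher and 19.1% lower. The median of the 7 was −0.29, against −0.13 for all genes. Dnajc15, a co-chaperone of the protein import motor, had 6382 and 5982 in the first pair and 3481 and 3798 in the second, a fall of 0.76. Dnajc30 fell by 0.73. Hspa9, Dnaja3 and Dnajc11 differed by 0.01, −0.29 and −0.16.

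The remaining calls lay outside these sets. Lower in the second pair were Dnajc17, a nuclear protein linked to splicing, with 12765 and 9746 against 7377 and 6147 (a fall of 0.73), Dnajc14 (0.71), Dnajb2 (0.61), Hspbp1 (0.52) and Dnajc2, the ribosome-associated zuotin (0.44). Higher were Dnajc13 (0.57) and Dnajb14 (0.83, adjusted p = 0.0487, limma), whose rise was 1.52 in het and 0.14 in cKO. The HSP110 genes Hspa4 (−0.02), Hspa4l and Hsph1, the HSP90 genes, the class A DnaJ genes and all 4 tested small heat shock proteins were not called (Hspb2 −0.51, Hspb6 0.02, Hspb8 −0.16). Nor were Hspa2 (0.22), Hspa14 (−0.03), Dnaja2 (−0.04), Dnajb5 (0.33), Dnajc5 (−0.01) and Dnajc7 (0.03). The largest difference that did not pass was that of Dnajc28, −1.23 (adjusted p = 0.0716, limma), which was −2.17 in het and −0.29 in cKO, at signals from 36.7 to 169.

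The count of 18 depended on how the spread was estimated. Without genotype in the model 10 of 60 members were called, and without a trend of the variance on the signal 3 (Dnajb9, Dnajb4 and Hspa1a, which passed under all 7 alternatives). Leaving out 1 array in the fit without genotype gave 11 calls without het_1210, 5 without het_1261, 28 without Ko_1210 and 4 without KO_1261. Scaling moved the balance: centring each array on its median gave 5 higher and 15 lower, and shifted the median of all genes from −0.13 to −0.29, while quantile scaling gave 12 and 13 and brought Hspa8 to −0.03 (adjusted p = 0.738, limma). The rises of Hspa5, Dnajb1 and Dnajc13 were not called after median centring. The falls of Hspa8 and Hspe1 were not called under quantile scaling, and the rise of Dnajb14 was lost under all 7 alternatives.

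Most genes had several probe sets, and these did not always move alike. Of the 39 genes with more than 1 tested probe set, the difference between the pairs had one sign at all of them in 23 and differed in sign in 16. Of 128 tested probe sets of the members 39 passed, 24 higher and 15 lower, against 34.6% of all probe sets. The brightest probe set of Hspa8 and the next 2 all fell, by 0.54 to 0.61, while a dim one (signals of 356 to 1241) rose by 1.19. The brightest one carries the suffix x_at, by which the maker marks probe sets whose probes partly match other transcripts too.

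**Figure D4:**
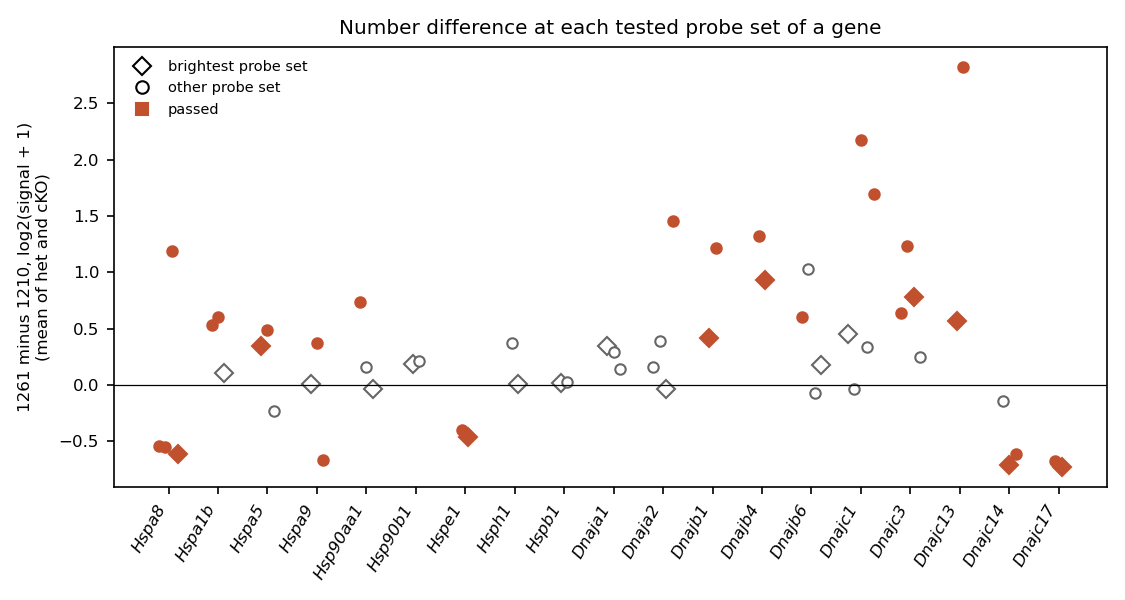
Second minus first pair in log2(signal + 1), averaged over het and cKO, at each tested probe set of heat shock and DnaJ genes that have several, with the brightest probe set of a gene as a diamond and passing probe sets in colour. The probe sets of Dnajb4, Hspe1 and Dnajc17 lie on one side of 0, while those of Hspa8 lie on both sides.

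For Hspa9 one probe set rose by 0.38 and another fell by 0.66, with the brightest at 0.01. At 6 members a dimmer probe set passed although the brightest did not: Hspa1b, Hsp90aa1, Hspa9, Dnaja2, Dnajb6 and Dnajc1. Hspa1b rose by 0.53 and 0.61 at its other probe sets, against 0.11 at the brightest. Hsp90aa1 rose by 0.73 at a probe set with 4182 and 6069 in the first pair and 8039 and 8729 in the second, where the brightest had −0.03. Dnajb1 rose by 1.21 at its second probe set, from 2878 and 3667 to 6595 and 8605, against 0.42 at its first. Since Hspa1a and Hspa1b are near-identical copies, their probe sets may each detect both transcripts, and the split between them is uncertain.

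Lists of other genes of the same pathways gave calls between the pairs and none between the genotypes. Between genotypes, none of the tested genes of the lists of heat shock regulation (8 tested), cytosolic chaperone partners (30), chaperonin CCT and prefoldin (14), ER folding (29), mitochondrial import and folding (16) or small heat shock relatives (1) was called, with or without the block. The share called over all genes was 0% without the block and 0.868% with it, so the absence of calls was not particular to these lists. Between pairs, the chaperonin list, whose CCT ring folds actin and tubulin, had 7 of 14 lower and none higher, with a median of −0.34, where 19.1% of all genes were lower and 12.8% higher, with a median of −0.13. The other list counts between the pairs stand against the same shares. Cct7 fell by 0.55 and the prefoldin subunit Pfdn4 by 0.68. The chaperone partners had 11 of 30 lower and 1 higher. Those that fell included the ubiquitin ligase Stub1 (0.64), the kinase co-chaperone Cdc37 (0.39), Fkbp4 (0.43), Sugt1 (0.60) and Bag1 (0.38), and the one that rose was Cdc37l1 (0.73).

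Within heat shock regulation 4 of 8 rose and 1 fell. Those that rose were Ier5, an activator of HSF1 (1.20), the autophagy receptor Sqstm1 (1.15) and the metallothioneins Mt1 (0.59) and Mt2 (0.70), and the one that fell was the collagen chaperone Serpinh1 (0.44). In the ER list 3 of 29 rose and 8 fell. The sensor Atf6 (0.68), the translocon partner Sec63 (0.76) and Ddit3, which encodes CHOP (0.56), rose, while Herpud1 fell by 0.69, the BiP cofactors Sil1 by 0.63 and Sdf2l1 by 0.50, Pdia3 by 0.62, the translocon subunits Sec61a1 by 0.55 and Sec61b by 0.54, and the ATF4 targets Asns by 0.77 and Chac1 by 1.28. The mitochondrial list had 5 of 16 lower (Trap1 0.57, Grpel1 0.68, Clpp 0.70, Pam16 0.53 and Timm44 0.55) and Clpx higher by 0.70. Cryab, the αB-crystallin relative of the small heat shock proteins, fell by 0.97, from 569 and 262 to 227 and 169.

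Immediate early genes, which many cells induce within minutes of a stimulus, moved with the pair too. Of 25 tested, 23 rose in the second pair and none fell, with a median of 2.02 in het and 1.03 in cKO, where 12.8% of all genes rose. Fosl1 rose by 4.02 and Nr4a1 by 2.82. Between genotypes, with the block, 7 of 25 were higher and 3 lower (Egr1, Egr2 and Egr3), where 0.868% of all genes were called, and 0 of 25 were called without it. The part of these genes, of the spike-in difference, of the differences in Xist and Eif2s3y and of the marker lists in the chaperone values was not tested.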

How the data were processed

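Per the submitters' processing notes, the authors made the deposited intensity values with MAS5 (version not given in the sources used here); per the labels' protocols, RNA was extracted with Trizol and labelled by a 3' in vitro transcription kit. The mean intensity, with 2% trimmed at each end, was 500 on all 4 arrays. Of 45101 probe sets, 64 controls were left out. The platform annotation, updated by gene identifier, gave 34945 probe sets 1 symbol (34741 matched), 932 several and 9160 none. Values were taken as log2(signal + 1), and fold changes are on that scale, which understates changes of dim probe sets.

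limma 3.58.1 in R 4.3.3 (lmFit, eBayes with a variance trend, two-sided, threshold 0.05) was fitted to the 22518 probe sets above the filter, after a check on simulated data. Genotypes were compared without a block (2 residual degrees of freedom), and title numbers (the first and second pair) with genotype in the model (1 residual degree of freedom, 34.4 prior). Alternatives were the pseudocount, filter, scaling, variance prior, block, covariate and left-out arrays. The number of arrays limits the precision.

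The members and gene lists were chosen with earlier results of these data known, and the family and compartment sets after the values were seen. Genes named are those that passed, the 10 largest differences per comparison and a list of well-known members; partners are named where they passed, as a selection. Protein sequences were not used here. Figures used matplotlib 3.10.9.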

Additional observations from a re-analysis of the deposited data

Results flagged for a closer look

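In 2 members the genotype difference exceeded 1.5-fold in both pairs of arrays that share a title number but ran in opposite directions. Dnajb14, a membrane-bound ER co-chaperone, gave 97.9 on het_1210 and 157 on Ko_1210, a log2 difference of 0.67, and 282 on het_1261 and 173 on KO_1261, a difference of −0.71. The difference in the second pair was thus −1.38 relative to that in the first. Dnajc27 had 54.3 and 97.7 in the first pair (0.84) and 107 and 62.8 in the second (−0.75), a change of −1.591. This interaction was not tested, since there is 1 array per pair and genotype. Such opposite differences were seen in 3.33% of the tested members and in 93 of all tested genes, or 0.841%. Dnajc27 lay below the filter of 65.9 on het_1210 and KO_1261, while the lowest signal of Dnajb14 was 97.9. The mean genotype difference of Dnajb14 was −0.02 at 1 of its 2 tested probe sets and 0.10 at the other.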

How the results depend on the processing

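Between genotypes, 0 of 60 members were called in every setting tried, the replicate block (0 of 60), the block with a robust prior and the block without a variance trend included. At the brightest probe sets the block changed no call of a member, while 1 dimmer probe set, of Hsp90b1, passed only with it. The 2 pairs of equal numbers are not stated to share a litter or an animal, and deviations of same-numbered arrays correlated at 0.755. The members' median of 0.05 became 0.085 under quantile scaling and 0.031 with the mean of all tested probe sets, and ranged from 0.024 to 0.071 with 1 array left out, while the median of all genes, −0.024, ranged from −0.112 to 0.048 (without het_1210 the members had 0.024 and all genes 0.017). Between the pairs, 18 calls became 10 without genotype in the model and 3 without a variance trend. Leaving out 1 array with genotype kept in the model leaves no residual degrees of freedom; without genotype, a choice made after seeing the data, the count was 11 without het_1210, 5 without het_1261, 28 without Ko_1210 and 4 without KO_1261. The median of −0.002 became 0.016 without a filter, −0.051 under quantile scaling, −0.167 under median centring and 0.027 with the mean of all tested probe sets, and ranged from −0.016 to −0.0015 with 1 array left out. Hsp90aa1 went from −0.03, not called, to 0.30 under quantile scaling, where it was called. The causes of these shifts were not tested. The probe sets with signals near the filter limit what can be said of dim members.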

Other observations

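Several members that the filter removed had signals that differed between single arrays. Dnajc22 had 104 in het_1261 and at most 13.5 on the other arrays. Hspb9, a testis member, had 23.3 and 29.5 in het against 1.71 and 3.87 in cKO, all below the filter and not tested. Hspa12b had 66.4 in het_1261 and 4.20 to 15.9 elsewhere.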
